A study of Mus musculus with 12 samples.

Results

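The genes described here code for the metalloproteinases of the extracellular matrix and cell surface and for their inhibitors: 16 matrix metalloproteinases (MMPs), 17 ADAMs, 17 ADAMTS proteases, 5 ADAMTS-like proteins and 4 tissue inhibitors of metalloproteinases (TIMPs). They were taken by name, as every gene in the deposited tables whose symbol starts with Mmp, Adam, Adamts, Adamtsl or Timp followed by a number. This gave 59 of 18604 genes. The choice of these families was made with earlier results of these data known. RNA came from hearts of male C57Bl/6J mice aged 12 weeks, all without a named genetic change, in 4 groups of 3 libraries. Control diet sham and control diet TAC mice ate a diet that held branched-chain amino acids (BCAA), while BCAA-free sham and BCAA-free TAC mice ate one that lacked them, each starting 4 days ahead of the operation and kept up afterwards. Surgery was a sham operation or transverse aortic constriction (TAC), a banding of the aorta that loads the left ventricle with pressure, and hearts were collected 1 week afterwards. No label states that the 3 libraries of a group are from separate mice. The p-values thus reflect only how far these samples spread, and that spread may be technical.

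MMPs are zinc-dependent enzymes that cut collagens, elastin, fibronectin and other matrix proteins, and most are made as inactive precursors. ADAMs sit in the membrane and release the outer parts of growth factors, cytokines and receptors. ADAMTS enzymes are secreted and cut procollagens and large proteoglycans, whereas ADAMTS-like proteins lack the protease domain and bind matrix fibres. TIMPs block these enzymes, and TIMP2 also takes part in the activation of MMP2 by MMP14. In the pressure-loaded heart this system is known for its part in remodelling of the fibrous matrix.

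Libraries held 74206246 to 110452636 reads. Cardiomyocyte markers such as Myh6 and Tnnt2 were abundant in every group, and the lists for T cells (Cd3e, Cd3d) and neutrophils (Ly6g, Mpo, Elane) had defining genes with no row in the tables. Control diet sham 2, BCAA-free TAC 1, BCAA-free TAC 3 and control diet TAC 3 stood apart by 19.3 to 115.5 CPM (library reads scaled to a fixed total) of 3 structured RNAs, against 2.06 to 7.79 in the other libraries. The summed level of 8 activated fibroblast markers ran from 19459 to 22318 normalized reads in control diet sham, 77682 to 143034 in control diet TAC, 11271 to 14297 in BCAA-free sham and 21976 to 29611 in BCAA-free TAC hearts. That of 9 macrophage markers was 22708 to 30002, 43167 to 45633, 21033 to 24044 and 24712 to 31748 in the same order. For 9 cardiomyocyte markers it was 5.85e+06 to 6.42e+06, 4.64e+06 to 5.37e+06, 6.35e+06 to 6.95e+06 and 6.74e+06 to 7.21e+06. For 9 general fibroblast markers it was 148512 to 174654, 165530 to 180501, 143775 to 150322 and 154136 to 161083. All markers of these summed lists were measured, and their part in the results below was not tested. In whole-heart RNA, more cells of a type and more RNA per cell cannot be told apart.

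The catalytic site sets the enzymes among these genes apart from the rest. It is encoded by a histidine codon, a glutamate codon, any 2 codons, another histidine codon, any 2 codons, a glycine codon, any 2 codons and a last histidine codon. In the longest coding sequence of each gene (GENCODE, GRCm38) this pattern was found in 38 of 59 genes. After that count was seen, the pattern was widened to allow asparagine in place of the glycine, which gave 43, and then serine as well, which gave 44. The wider counts therefore describe a pattern fitted to these genes. With it, all 16 MMPs, all 17 ADAMTS genes and 11 of 17 ADAMs held the site. Adam11, Adam22, Adam23, Adam32, Adam4 and Adam5 did not, nor did any ADAMTS-like or TIMP gene. The 33 coding bases of the site are shown for the proteases on which the results turn, with the histidine codons and the codon between the last 2 of them in capitals.
Mmp2: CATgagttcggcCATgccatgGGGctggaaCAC
Mmp14: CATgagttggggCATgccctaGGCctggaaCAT
Mmp23: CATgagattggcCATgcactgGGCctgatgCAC
Adam12: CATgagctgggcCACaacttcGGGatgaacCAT
Adamts2: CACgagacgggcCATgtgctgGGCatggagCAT
Adamts9: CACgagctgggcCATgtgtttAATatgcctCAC
Adamts8: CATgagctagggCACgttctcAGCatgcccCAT
Adamts9 has the asparagine codon, shared with Adamts1, Adamts4, Adamts15 and Adamts20, and Adamts8 is the 1 gene with serine. Adam1a and Adam1b have the same 33 bases, and their reads may have been split between them, though only this stretch was compared. Exons of Adam1a also overlap Gm42878 and Mapkapk5 on the same strand and Tmem116 on the opposite strand.

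Per kilobase of exon, the members spanned from 3.93 normalized reads for Adam1b to 2269 for Timp2, as means of 12 libraries. Normalized reads are reads after division by a library's size factor. Timp2, Timp3 (1915), the gelatinase Mmp2 (1609.7), Adamtsl5 (1588) and the membrane-type Mmp15 (1551) stood at the top. The highest ADAMs were Adam9 (1503), Adam10 (1052) and Adam15 (712), of which Adam10 is the protease that releases Notch and many other surface proteins. Adamts1 (1254), Adamts10 (375) and Adamts2 (335) led their family. Adam21, Mmp25, Adamts16 and Mmp24 were not listed in all 4 tables and are missing from this order.

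**Figure D1:**
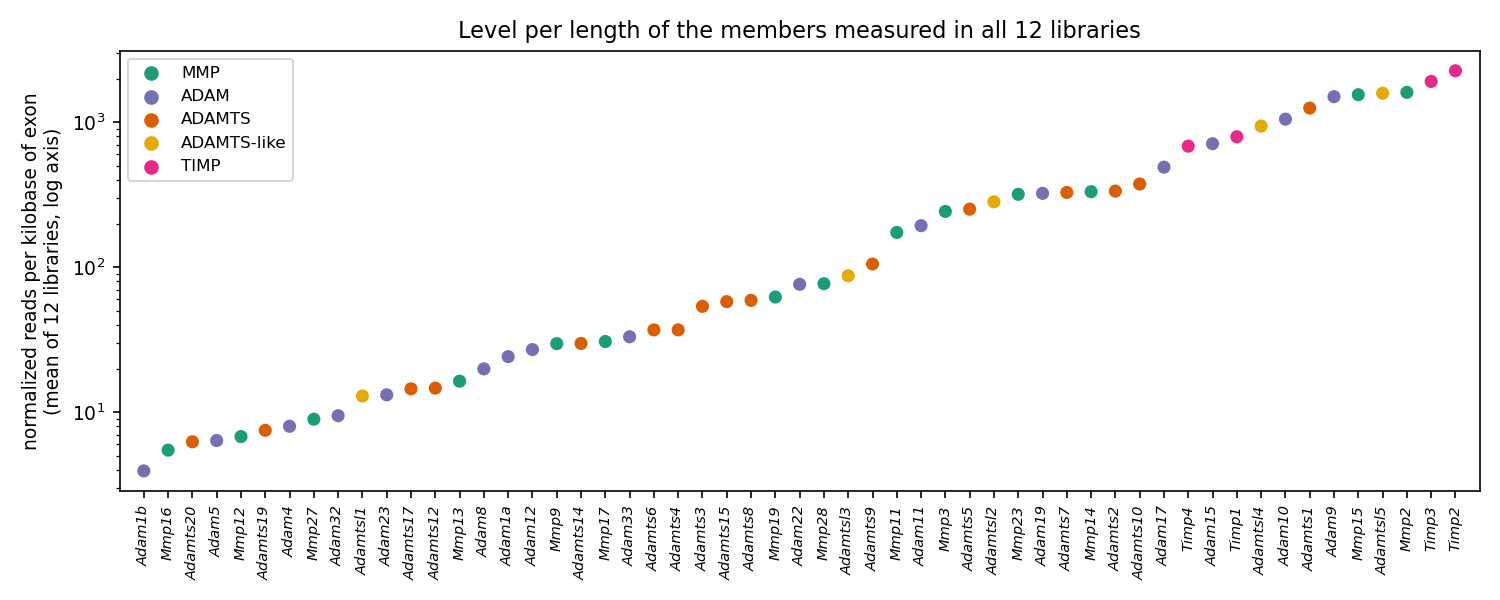
Mean normalized reads per kilobase of exon over 12 libraries (vertical log axis) for each member with values in all of them, ordered by level and coloured by family. Levels run from 3.93 (Adam1b) to 2269 (Timp2), and Timp2 and Timp3 are the uppermost.

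Timp1, an inducible secreted inhibitor, rose with TAC on both diets. It lies on chromosome X (20870166 to 20874735, GRCm38). Its normalized reads were 207, 123 and 179.9 in the control diet sham libraries and 1855, 1739.7 and 2353 in control diet TAC. They were 121, 137 and 92.1 in BCAA-free sham and 694, 343 and 626 in BCAA-free TAC. TAC libraries lay above sham libraries on each diet without overlap, and every control diet TAC library lay above every BCAA-free TAC library. The log2 change with TAC was 3.55 ± 0.207 (SE, adjusted p = 6.04e-05) on the control diet and 2.19 ± 0.267 (adjusted p = 0.00254) on the BCAA-free diet. The difference of these responses, -1.36 ± 0.367, did not pass by limma (adjusted p = 0.0972) or edgeR (0.0946), whereas DESeq2, run like edgeR on whole reads recovered from the deposited values, called it (adjusted p = 0.0094).

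Timp4, the TIMP known for its high expression in heart, moved the other way. Its reads were 4102, 4015 and 2823 in control diet sham, 1664, 2253 and 2336 in control diet TAC, 6008, 4754 and 5231 in BCAA-free sham, and 5049.9, 5154 and 5069 in BCAA-free TAC libraries. The control diet TAC libraries were the lowest 3 of the 12. Timp4 fell by 0.81 ± 0.176 with TAC on the control diet (adjusted p = 0.0165), and its change on the BCAA-free diet was -0.07 ± 0.075 (adjusted p = 0.663). Among TAC hearts it was higher on the BCAA-free diet by 1.31 ± 0.131 (adjusted p = 0.000482). The difference of the TAC responses was 0.75 ± 0.21 and did not pass by limma (adjusted p = 0.107) or edgeR (0.0996), whereas DESeq2 called it (adjusted p = 0.0242). The control diet fall did not pass without sham 1 (adjusted p = 0.0735), sham 2 (0.0667) or TAC 1 (0.0622).

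Timp2 binds MMP2 and MMP14, and Timp3 is held in the matrix and also inhibits ADAM17. Timp2 had 9054, 7787 and 8387 reads in control diet sham, 12851, 12594 and 9354 in control diet TAC, 6973, 7399 and 6835 in BCAA-free sham, and 8393, 8052 and 8384 in BCAA-free TAC libraries. It rose by 0.22 ± 0.0533 with TAC on the BCAA-free diet (adjusted p = 0.0271) and changed by 0.44 ± 0.135 on the control diet (adjusted p = 0.0588). The BCAA-free call of Timp2 was kept in 2 of 6 fits that left out a library, and did not pass without sham 1 (adjusted p = 0.0972), sham 3 (0.113), TAC 1 (0.0527) or TAC 3 (0.0661). Timp3 ran from 11093 to 19874 reads over all libraries, its changes were between 0.03 and 0.22, and it passed in no comparison of all libraries. Without control diet sham 2 it was called for diet in sham hearts. Of its exon bases 21.3% overlap Syn3 on the opposite strand, and reads of the pair cannot be told apart without a known strand setting.

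In the summed TIMP level per kilobase, Timp1 made up 4.07% ± 1.26 (SD, n = 3) in control diet sham and 30.5% ± 7.41 in control diet TAC hearts. On the BCAA-free diet its share was 2.75% ± 0.432 in sham and 10.8% ± 2.98 in TAC. Timp4 went from 12.9% ± 1.93 to 4.81% ± 1.05 on the control diet and from 19.0% ± 2.46 to 15.2% ± 1.35 on the BCAA-free diet. A share also moves when the other TIMPs change. The median level of Timp4 itself on the BCAA-free diet was 887 per kilobase in sham and 860 in TAC hearts. The shares are a description and were not tested.

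**Figure D2:**
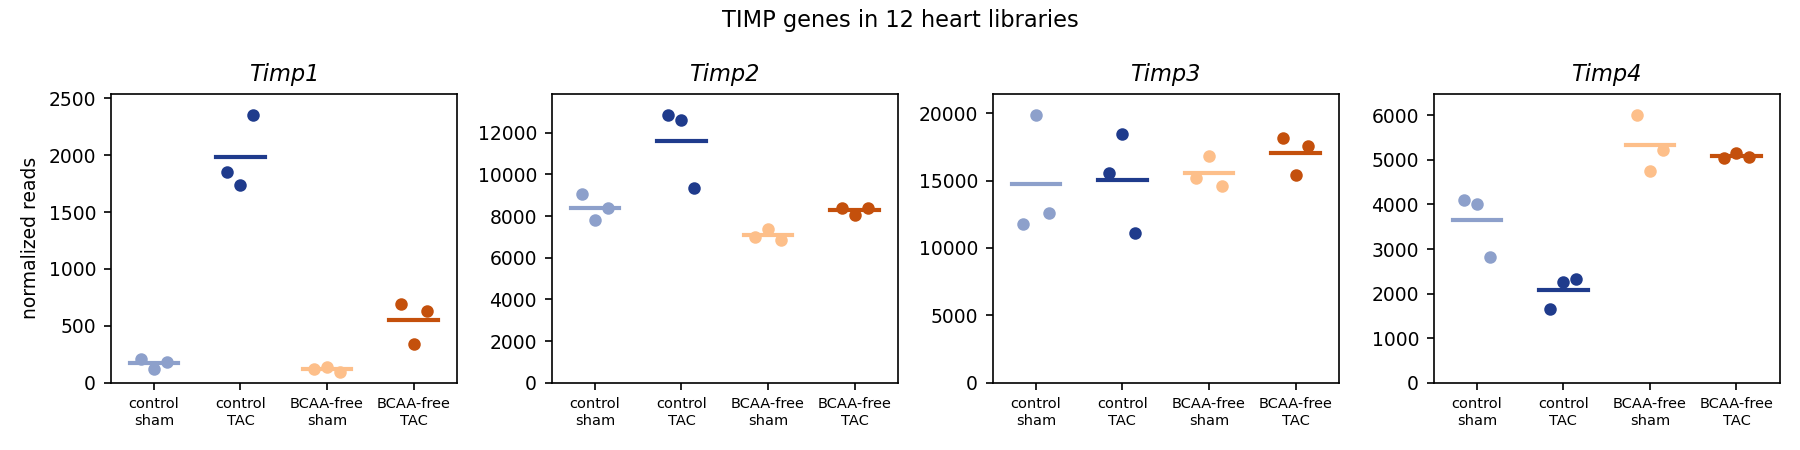
Normalized reads of the 4 TIMP genes in each of 12 libraries (points, vertical axis from 0) by group, with lines at the means of 3 libraries. Timp1 reaches 1739.7 to 2353 in control diet TAC and 343 to 694 in BCAA-free TAC hearts, and Timp4 is lowest in control diet TAC (1664 to 2336).

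The first comparison asks how pressure overload changed these genes on the control diet. A member was called when its Benjamini-Hochberg adjusted p over all genes was below 0.05. Of 58 members tested, 17 rose and 2 fell, where 14.8% of all genes tested were called, 9.17% higher and 5.64% lower. At an unadjusted p below 0.05 there were 30 members (51.7%), against 29.7% of all genes. The median log2 change was 0.39 over the members and -0.02 over all genes. By family, 6 of 16 MMPs, 4 of 16 ADAMs, 4 of 17 ADAMTS genes, 2 of 5 ADAMTS-like genes and 1 of 4 TIMPs rose, and Mmp15 and Timp4 fell. Libraries of the groups did not overlap in 22 members (37.9%) that were higher, against 18.5% of all genes, and in 6 (10.3%) that were lower, against 16.3%. Adamts16 and Mmp24 are among those that rose, though they passed the filter on low values (a mean of at least 10 reads) only through the TAC libraries, which fixed their direction. The other 15 had a mean of at least 10 reads in both groups.

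Mmp2, a gelatinase that fibroblasts make (chromosome 8, 92827291 to 92853420), had 4665, 3567 and 4613 reads in control diet sham and 13488, 13320.3 and 6408 in control diet TAC. The groups did not overlap, though TAC 3 had less than the other TAC libraries. Mmp2 rose by 1.29 ± 0.261 (adjusted p = 0.0122), and did not pass without sham 2 (adjusted p = 0.0511) or TAC 1 (0.0551). Mmp14, the membrane-bound activator of pro-MMP2 (chromosome 14, 54431612 to 54445364), went from 1831, 1110.4 and 1609 to 5307, 4519 and 2274 reads. It rose by 1.34 ± 0.306 (adjusted p = 0.0215), and did not pass without sham 2 (0.0643), TAC 1 (0.0706) or TAC 2 (0.0882). Mmp23, a membrane-anchored MMP (chromosome 4, 155650655 to 155653384), went from 553, 507 and 497 to 1488, 1528 and 1102 reads and rose by 1.38 ± 0.141 (adjusted p = 0.00071).

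Mmp19 had 159 to 173 reads in sham and 289 to 374 in TAC hearts and rose by 1.02 ± 0.161 (adjusted p = 0.00443). Of its exon bases, 28.3% overlap genes on the opposite strand. Mmp15 fell from 9332 to 10193 reads in sham to 6631 to 8397 in TAC, a change of -0.41 ± 0.112 (adjusted p = 0.0378). The macrophage elastase Mmp12 rose by 1.21 ± 0.332 (adjusted p = 0.0402) at low levels of 20.3 to 42.7 reads in sham and 54.3 to 89.8 in TAC. Mmp24 had 3.2 to 7.77 reads in sham and 13.4 to 20.6 in TAC libraries. The calls of Mmp15, Mmp12 and Mmp24 were each lost when 1 of several single libraries was left out.

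Among ADAMs the membrane proteases Adam8, found on myeloid cells, and Adam12, found on activated mesenchymal cells, both rose. Adam8 (chromosome 7, 139978932 to 139992562) had 60.2, 63 and 52 reads in sham and 211, 198 and 146 in TAC libraries, a rise of 1.63 ± 0.211 (adjusted p = 0.00201). Adam12 (chromosome 7, 133883199 to 134232146) had 156, 238 and 277 in sham and 772, 739.5 and 383 in TAC libraries, a rise of 1.46 ± 0.294 (adjusted p = 0.0123). For both genes every TAC library was above every sham library. Adam15 rose by 0.60 ± 0.127 (adjusted p = 0.0149), and 20.6% of its exon bases overlap a gene on the opposite strand. The sheddases Adam10 and Adam17 did not pass, with changes of -0.02 ± 0.136 and 0.08 ± 0.114. Adam5 rose by 1.57 ± 0.405 on only 7.99 to 55.8 reads (adjusted p = 0.0321), and kept its call in 1 of 6 fits that left out a library.

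Adamts2, which removes the amino-terminal propeptide of fibrillar procollagens (chromosome 11, 50602084 to 50807573), had 2344, 1736 and 2217 reads in sham and 7300.4, 8569 and 4447 in TAC libraries. It rose by 1.64 ± 0.222 (adjusted p = 0.00244). Its relatives Adamts3 and Adamts14 changed by -0.37 and 0.79 and did not pass. Adamts8, of the proteoglycan-cutting group (chromosome 9, 30942562 to 30963838), had 96.1, 130.3 and 119 reads in sham and 1096, 689 and 431 in TAC libraries, a rise of 2.57 ± 0.298 (adjusted p = 0.00117). Adamts20 rose by 1.02 ± 0.244 (adjusted p = 0.0239), while Adamts1, Adamts4, Adamts5, Adamts9 and Adamts15 of that group did not pass. Adamts16 went from 1.94, 2.14 and 0.799 to 72.9, 108 and 17.5 reads. Its call and that of Mmp24 support nothing, for the reason given above.

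Adamtsl2, which binds fibrillin and latent TGF-beta binding protein (chromosome 2, 27079379 to 27108981), went from 1860.0, 1324 and 1755 to 6204, 5279 and 3059 reads, a rise of 1.502 ± 0.241 (adjusted p = 0.00476). Adamtsl5 rose by 0.46 ± 0.0942 (adjusted p = 0.0126). Control diet TAC 3 had the lowest TAC value in 14 of the 17 members that rose, while Timp1 was highest there. Without TAC 3, 28 members were called, where 25.6% of all genes were. Without sham 2 the count was 9, where 7.6% of all genes were called, and without TAC 1 it was 12, where 7.5% were. Timp1, Mmp23, Adamts8, Adam8, Adamts2, Mmp19 and Adamtsl2 were called in all 6 such fits.

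**Figure D3:**
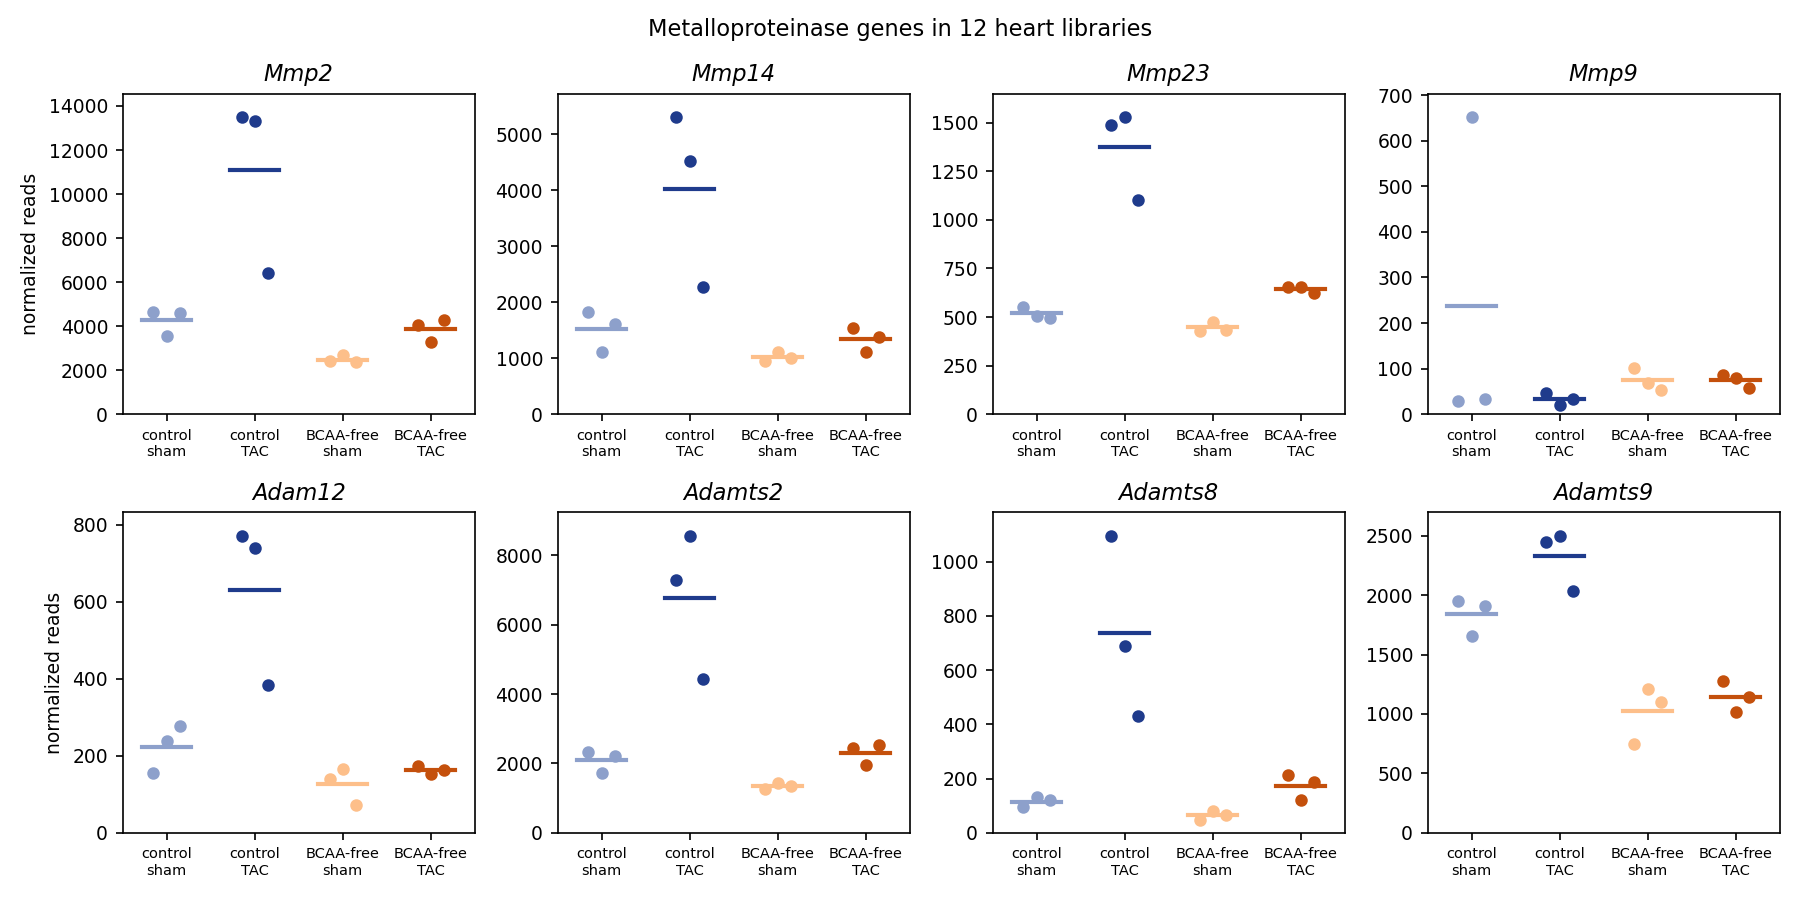
Normalized reads of 8 metalloproteinase genes in each of 12 libraries (points, vertical axes from 0) by group, with lines at the means of 3 libraries. Mmp2 reaches 6408 to 13488 in control diet TAC hearts, and Mmp9 is at 651 in 1 control diet sham library and at 21.3 to 101 in the others.

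The second comparison asks the same on the BCAA-free diet. Of 56 members tested, 8 rose and 0 fell by limma, where 7.72% of all genes were called, 3.31% higher and 4.41% lower. Without overlap between groups 16 members (28.6%) were higher, against 13.4% of all genes, and 3 (5.36%) lower, against 14.7%. At an unadjusted p below 0.05, 16 members (28.6%) differed, against 23.3% of all genes. Of these 16, 1 was lower (Adamts5), and edgeR and DESeq2 each called 0 lower. The median change was 0.19 over the members and 0.01 over all genes. Adamts2, Adamts8, Adamtsl5, Mmp2, Mmp23 and Timp1 were among those that rose on the control diet too, 35.3% of the 17 there and 75.0% of the 8 here. These comparisons share no library. By limma on all libraries, Adamts10 and Timp2 were called on the BCAA-free diet but not on the control diet, where DESeq2 did call Timp2. By the authors' deposited log2 fold changes, both genes had the larger change on the control diet. Adamts10 changed by 0.53 there and 0.38 on the BCAA-free diet, and Timp2 by 0.45 and 0.22. The responses of Adamts10 and Timp2 were not called as different between diets with all libraries, but both were when control diet TAC 3 was left out. Without that library both were also called with TAC on the control diet.

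Adamts2 had 1251, 1422 and 1352 reads in BCAA-free sham and 2436, 1961 and 2524 in BCAA-free TAC libraries, a rise of 0.77 ± 0.0936 (adjusted p = 0.000988). Mmp2 had 2413, 2683 and 2356 in sham and 4035, 3285 and 4282 in TAC libraries, a rise of 0.63 ± 0.0933 (adjusted p = 0.00312). The BCAA-free TAC values of Mmp2 lay among or below the control diet sham values. Adamts8 went from 46.6, 79.8 and 66.8 to 212, 120.4 and 186 reads, a rise of 1.40 ± 0.253 (adjusted p = 0.00681). Mmp23 went from 429.9, 477 and 434 to 654, 653 and 623 reads, a rise of 0.52 ± 0.0952 (adjusted p = 0.00719). Every TAC library was above every sham library for all of these genes.

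Adamtsl5, whose protein binds fibrillin fibres, rose by 0.50 ± 0.0741 (adjusted p = 0.00214), close to its 0.46 on the control diet. Adamts10, linked to fibrillin microfibrils, rose by 0.38 ± 0.08 (adjusted p = 0.0149) from 2204 to 2589.6 reads in sham to 2863 to 3411 in TAC. This call did not pass without sham 2 (adjusted p = 0.0609) or sham 3 (0.0663). Adamtsl2 (0.89 ± 0.231, adjusted p = 0.0791), Adam8 (0.71 ± 0.239, adjusted p = 0.0925), Mmp14 (0.38 ± 0.111, adjusted p = 0.0572) and Mmp19 (0.52 ± 0.158, adjusted p = 0.0648) did not pass, though their groups did not overlap. Without BCAA-free TAC 1 and TAC 3 the count of called members was 3, but that fit has 1 BCAA-free TAC library, assumed to vary like the other group, and says nothing on whether the calls are stable.

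**Figure D4:**
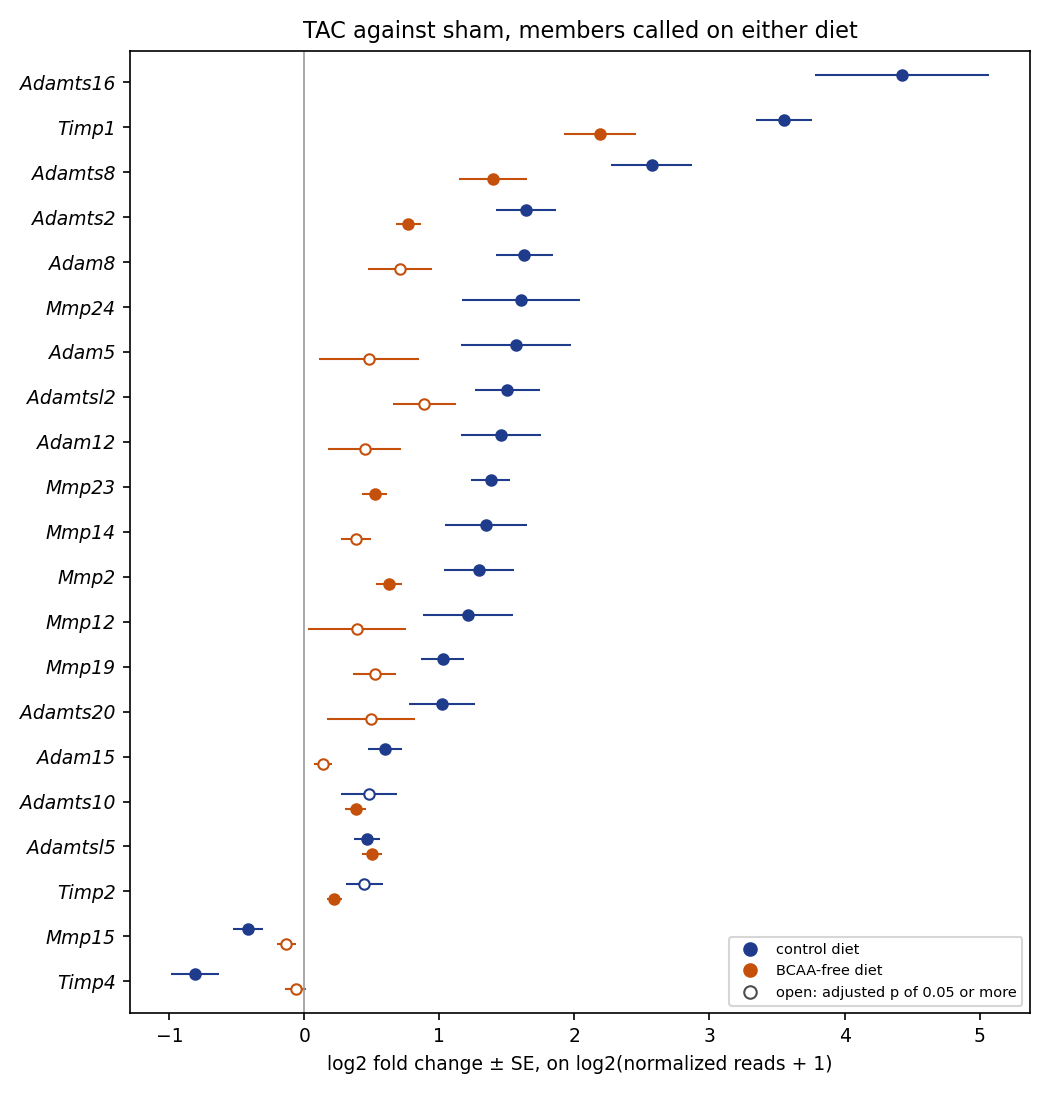
Log2 fold change of TAC against sham ± SE (horizontal axis) for each member called on either diet, with 3 libraries a group. Filled points passed an adjusted p of 0.05 and open points did not. Timp1 stands at 3.55 on the control diet and 2.19 on the BCAA-free diet, and Timp4 at -0.81 and -0.07.

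The third comparison asks what the diet did in sham hearts. Of 55 members tested, 4 fell and 0 rose by limma, where 3.54% of all genes were called, 2.27% lower and 1.27% higher. Without overlap between groups 15 members (27.3%) were lower, against 12.9% of all genes, and 2 (3.64%) higher, against 13.2%. At an unadjusted p below 0.05, 22 members (40%) differed, against 19.9% of all genes. Of these 22, 3 were higher, while edgeR called 0 higher and DESeq2 1. The median change was -0.22 over the members and 0.00 over all genes, and 37 of 55 were negative. Mmp2 fell by 0.78 ± 0.104 (adjusted p = 0.0084), from 3567 to 4665 reads to 2356 to 2683. Adamts2 changed by -0.64 ± 0.108 (adjusted p = 0.0157), Adamtsl2 by -0.90 ± 0.147 (adjusted p = 0.0194) and Adamts9, which cuts versican, by -0.88 ± 0.175 (adjusted p = 0.0438). Each of these had no overlap between groups, and each lost its call when at least 1 library was left out. Without control diet sham 2 the count of called members was 16, of which 12 were lower and 4 higher, where 6.03% of all genes were called. The count was 1 without control diet sham 3, BCAA-free sham 1 or BCAA-free sham 3, where 1.03%, 0.28% and 0.762% of all genes were called.

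The fourth comparison asks what the diet did in TAC hearts. Of 57 members tested, 16 were lower and 4 higher on the BCAA-free diet, where 16.8% of all genes were called, 10.5% lower and 6.23% higher. At an unadjusted p below 0.05, 27 members (47.4%) differed, against 31.4% of all genes. Without overlap between groups 20 members (35.1%) were lower, against 19.2% of all genes, and 7 (12.3%) higher, against 17.0%. The median change was -0.31 over the members and 0.02 over all genes. The control diet TAC libraries also enter the first comparison, so the values of the pair are not independent. By family, 4 of 15 MMPs, 3 of 16 ADAMs, 6 of 17 ADAMTS genes, 1 of 5 ADAMTS-like genes and 2 of 4 TIMPs were lower.

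Adam12 had 772, 739.5 and 383 reads in control diet TAC and 172, 153 and 162 in BCAA-free TAC libraries, a change of -1.88 ± 0.247 (adjusted p = 0.0014). Adamts9 (chromosome 6, 92772699 to 92943492) had 2448, 2501 and 2037 against 1279, 1016 and 1146, a change of -1.02 ± 0.121 (adjusted p = 0.000871). Its exons overlap opposite-strand genes over 12.0% of their bases. Adamts9 was lower without dietary BCAA in sham and TAC hearts alike, as were Mmp2, Adamts2 and Adamtsl2, which are all 4 members called in sham hearts and 25.0% of the 16 lower here. Those comparisons share no library.

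Timp1 was lower by a log2 change of -1.88 ± 0.242 (adjusted p = 0.00125), Mmp23 by -1.07 ± 0.135 (adjusted p = 0.00115) and Adamts8 by -2.02 ± 0.32 (adjusted p = 0.00312). The collagen-processing Adamts2 changed by -1.504 ± 0.211 (adjusted p = 0.00188), Adam15 by -0.68 ± 0.107 (adjusted p = 0.00306) and Adam8 by -1.22 ± 0.225 (adjusted p = 0.0065). Mmp2 (-1.44 ± 0.258, adjusted p = 0.00646), Mmp14 (-1.502 ± 0.279, adjusted p = 0.00813) and Adamtsl2 (-1.51 ± 0.276, adjusted p = 0.00762) were lower as well. Groups did not overlap for any of these 9 genes. Adamts4, Adamts14, Mmp19 and Timp2 were also called lower. Of 6 fits that left out a library, Adamts4 kept its call in 2, and Adamts14, Mmp19 and Timp2 each in 1. Adamts16, which had 2.35, 6.81 and 0 reads in BCAA-free TAC libraries, was called lower as well. It passed the filter only through the control diet TAC libraries, while the other 15 lower members had a mean of at least 10 reads in both groups.

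Higher on the BCAA-free diet were Timp4, Adam22, Adamtsl4 and Mmp9. Adam22, a catalytically inactive ADAM best known from synapses, had 798, 964 and 728 reads in control diet TAC and 1131, 1351 and 1405 in BCAA-free TAC libraries, a change of 0.65 ± 0.135 (adjusted p = 0.0109). Adamtsl4 changed by 0.43 ± 0.105 (adjusted p = 0.0229). The call of Adam22 was kept in 4 of 6 fits that left out a library, and that of Adamtsl4 in 3. The gelatinase Mmp9, stored by neutrophils, had 46.4, 21.3 and 34.3 against 86.8, 79.5 and 56.6 reads, a change of 1.15 ± 0.327 (adjusted p = 0.039), and kept its call in 2 of 6 fits that left out a library. Of 7 neutrophil markers 4 were listed, since Ly6g, Mpo and Elane had no row, and 3 had values in all libraries. These 3 had a summed level of 223 to 333 reads in control diet TAC and 211 to 368 in BCAA-free TAC libraries. Within the sum, Csf3r was lower on the BCAA-free diet without overlap (195, 157 and 142 against 91.5, 132 and 111). S100a8 (34.6, 22.3 and 81.9 against 45.7, 84.0 and 55.4) and S100a9 (66.3, 43.6 and 109 against 73.9, 152 and 55.4) overlapped between the groups. Their part in the result was not tested. Timp4, Adamts9, Mmp23, Timp1, Adam12, Adamts2, Adam15, Adamts8, Mmp2, Adam8, Adamtsl2 and Mmp14 were called in all 6 such fits. The count of called members was 35 without control diet TAC 3, where 33.5% of all genes were called, and 13 without BCAA-free TAC 2, where 6.65% were. Without BCAA-free TAC 1 and TAC 3 it was 7, in a fit with 1 BCAA-free TAC library that is assumed to vary like the other group.

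**Figure D5:**
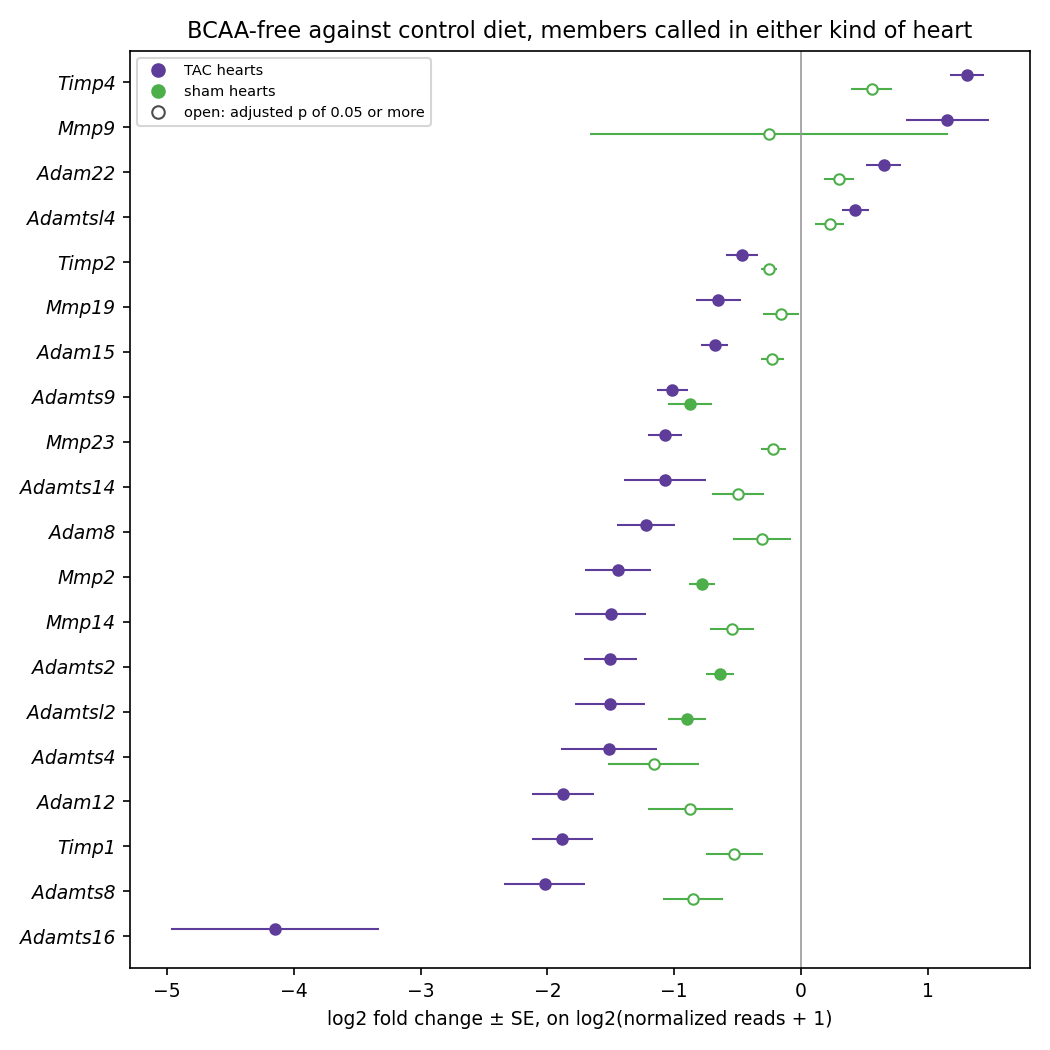
Log2 fold change of the BCAA-free against the control diet ± SE (horizontal axis) for each member called in TAC or sham hearts, with 3 libraries a group. Filled points passed an adjusted p of 0.05 and open points did not. Timp4 stands at 1.31 in TAC hearts, and Adam12, Timp1 and Adamts8 lie between -1.88 and -2.02.

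The last comparison asks whether diet altered the response to TAC. Of 55 members tested in the fit of all 12 libraries, 1 was called, where 0.675% of all genes were, 0.503% lower and 0.171% higher. At an unadjusted p below 0.05, 14 members (25.5%) differed, against 14.7% of all genes. Mmp23 rose by 1.38 on the control diet and 0.52 on the BCAA-free diet, a difference of -0.86 ± 0.166 (adjusted p = 0.0355). This call was kept in 2 of 12 fits that left out a library, with adjusted p up to 0.118. DESeq2 called 4 members, Mmp23, Timp1, Timp4 and Adamts2, where it called 4.62% of all genes. Differences were negative in 35 of 55 members, with a median of -0.14 against 0.02 over all genes. Without control diet TAC 3, 11 members were called, where 10% of all genes were.

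Mmp9 was set apart in 1 library. Control diet sham 2 had 651 normalized reads of it, the other sham libraries of that diet 28.2 and 33.6, and all other libraries 21.3 to 101. Its change with TAC on the control diet was -1.39 ± 1.14 (adjusted p = 0.472), and 0.02 (adjusted p = 0.986) without sham 2 and TAC 3. The authors' deposited table gives a log2 fold change of -2.81 and no p-value there. For diet in sham hearts, Mmp9 was among the members called once control diet sham 2 was left out. The neutrophil genes S100a8 (84.3) and S100a9 (137) were the highest of the sham libraries in sham 2, against 84.0 and 152 in BCAA-free TAC 2, where Mmp9 was at 79.5. Csf3r, also a neutrophil marker, had 91.3, 107 and 101 reads in the control diet sham libraries. Sham 2 was also the library with the most structured RNA (115.5 CPM). Whether any of these is linked to its Mmp9 level was not tested. Adam19 also varied within a group, with 5144, 1519 and 2972 reads in control diet sham, and was called in no comparison.

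Genes that activate, oppose or are cut by these proteases were taken from 6 lists. Their counts stand beside 9.17% of all genes higher and 5.64% lower with TAC on the control diet, and 3.31% higher on the BCAA-free diet. In the list of plasminogen activation, Serpine2, which codes for protease nexin-1, rose by 1.07 ± 0.12 with TAC on the control diet (adjusted p = 0.000998) and changed by -0.88 ± 0.118 with the BCAA-free diet in TAC hearts (adjusted p = 0.00155). Of 5 procollagen C-proteinases of the astacin group and their enhancers, 2 rose on the control diet and 3 on the BCAA-free diet. Pcolce, which speeds removal of the carboxy-terminal propeptide, rose by 1.28 ± 0.0958 and 0.53 ± 0.0965, and the difference of -0.76 ± 0.141 passed (adjusted p = 0.0291).

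Of 10 cathepsins and cystatins 7 rose with TAC on the control diet, where the median change was 0.45 over the list and -0.02 over all genes. Ctsk, a collagen-cutting cathepsin, rose by 1.67 ± 0.158 (adjusted p = 0.000532) on the control diet, with a difference between diets of -1.17 ± 0.231 (adjusted p = 0.0389). Of 11 ADAMTS substrates tested, 4 rose on the control diet and 3 on the BCAA-free diet. Vcan, the proteoglycan versican, rose by 1.28 ± 0.152 and 0.74 ± 0.129, and Comp, a cartilage matrix protein that is also among the activated fibroblast markers, by 2.32 ± 0.216 on the control diet. Of 23 ADAM10 and ADAM17 substrates and receptors tested on the control diet, 6 rose and 1 fell, with Hbegf, a heparin-binding growth factor, up by 1.21 ± 0.113. Of 18 activators, inhibitors and partners of ADAMs and MMPs, 2 rose on the control diet, a share near that of all genes. Tspan17, a tetraspanin partner of ADAM10, was 1 of them, with a rise of 0.94 ± 0.101. Its response differed between diets by -0.71 ± 0.127 (adjusted p = 0.0266).

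Promoters were available for 37 of the 59 genes, as the 250 bases before each start in RefSeq (GRCm38.p6). Mmp2, Mmp9, Mmp19, Adam12, Adamts8 and Adamts16 were among the genes without one and were not searched. Each of 4 sequences was searched on both strands in the 41 promoters of the 37 genes, where a match says only that the letters are there. TGAGTCA, the AP-1 sequence, was found in 4 genes (Adam19, Mmp12, Mmp13 and Mmp3). By promoter, it was in 4 of the 41 promoters of these genes and in 4.46% of all 32851 promoters. GGAATG was found in 2 (Adam19 and Timp1) and in 12.6% of promoters, while TGACGTCA (1.55%) and TGAGTAA (2.25%) were found in 0. The last 80 bases before the start are shown for 3 neighbouring MMP genes on chromosome 9 that hold TGAGTCA or its complement, with the match in capitals. For Mmp12 it lies at the second of its listed starts.
Mmp3 (chr9:7445742-7445821, plus strand): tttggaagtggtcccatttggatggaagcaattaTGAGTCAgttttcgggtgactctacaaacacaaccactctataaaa
Mmp12 (chr9:7347294-7347373, plus strand): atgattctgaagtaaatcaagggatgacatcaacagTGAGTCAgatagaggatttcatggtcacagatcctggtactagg
Mmp13 (chr9:7272434-7272513, plus strand): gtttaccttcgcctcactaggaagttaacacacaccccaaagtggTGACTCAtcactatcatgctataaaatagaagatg
The matches start 46, 44 and 35 bases before the start. Of these neighbours Mmp12 rose with TAC on the control diet, while Mmp3 changed by 0.67 ± 0.322 and Mmp13 by -0.33 ± 0.359 without passing.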

How the data were processed

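The members and gene lists were chosen with earlier results of these data known. The authors deposited 4 tables, 1 per pair of groups; per the file headers each holds the normalized signal of 6 libraries. Per the file headers a log2 fold change, a p-value and an adjusted p-value come with each gene. Deposited signal values are reads over a size factor set by library and table: 100% came out as whole reads within 0.0001 read, and the 212169 values shared between tables did not differ (0 differing). Tables hold genes with at least 61 reads over 6 libraries. Tools in the submitters' processing notes are STAR 2.5.2b, Subread 1.5.2, Trimmomatic 0.36 and DESeq2, with builds GRCm38 and mm10. Neither annotation nor strand setting is given in the sources used here. Positions are from GENCODE on GRCm38.

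Each table was fitted alone, 3 libraries against 3, with limma-trend and robust empirical Bayes (limma 3.58.1, R 4.3.3) on log2(value + 1) for genes with a mean of at least 10, adjusted by Benjamini-Hochberg over all genes and called below 0.05. The fold change understates changes of low genes. The difference of TAC responses used 12 libraries and 4 group means. Printed reads per library use size factors set jointly, so their ratios can differ from fold changes. Fits were tested on simulated data. edgeR 4.0.16, DESeq2 1.42.0, other scalings, pseudocounts of 0.5 and 8, a filter of 50 and left-out libraries were alternatives. Named genes were the TIMPs, the 12 smallest p among called members of each comparison, members called for the difference, the 3 highest per kilobase in each family and the 2 smallest p of each list. Others named were chosen after their values were seen. 1 result of the plasminogen activation list is not reported here.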

Additional observations from a re-analysis of the deposited data

Results flagged for a closer look

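The response of Mmp23 to TAC differed between the diets in a test of the difference itself, by -0.86 on the log2 scale (limma adjusted p = 0.0355). All 6 TAC libraries were above the sham libraries of their own diet. The call was lost in 10 of 12 fits that left out a library and in the fit with a replicate block.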

How the results depend on the processing

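Of the values of single genes under the alternatives, 1773 kept their side of the threshold, 58 newly passed and 89 no longer passed. Where either fit passed, 0 reversed direction. Changes of sign where neither fit passed are counted among the 1773. The cause of the shifts below was not tested. Leaving out 1 library gave 9 to 28 called members for TAC on the control diet, 6 to 12 for TAC on the BCAA-free diet, 1 to 16 for diet in sham hearts, 13 to 35 for diet in TAC hearts and 0 to 11 for the difference of TAC responses. The share of all genes called ran from 7.43% to 25.6%, 3.11% to 7.17%, 0.28% to 6.03%, 6.65% to 33.5% and 0.0915% to 10% in the same order. The count was 13 with DESeq2 for diet in sham hearts and 4 for the difference, where it called 8.57% and 4.62% of all genes. In a single fit of all 12 libraries, which called 1.72% and 0.845% of all genes, the count was 4 for TAC on the BCAA-free diet and 1 for diet in sham hearts. Without BCAA-free TAC 1 and 3 it was 3 for TAC on that diet, 7 for diet in TAC hearts and 0 for the difference. These fits have 1 BCAA-free TAC library, assumed to vary like the other groups, and say nothing on stability. The difference had 6 without control diet sham 2 and TAC 3, where 7.7% of all genes were called. Same-numbered libraries did not deviate together (correlations from -0.17 to 0.04). This gives no evidence that the numbers pair the samples, but with few libraries a group it cannot exclude pairing. A replicate block gave 16, 6, 2, 14 and 0 called members in the order of the comparisons, where 10.2%, 3.54%, 1.55%, 11.3% and 0.286% of all genes were called. Genes of few reads, such as Adamts16, Mmp24 and Adam5, are limited by depth.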
